A study of Mus musculus with 14 samples.

Results

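The genes described here form a set of red cell surface antigens and transporters. Most encode surface proteins that carry blood group antigens or move water, urea, gases or lipids, while Cd24a is another surface antigen and Tspo2 binds cholesterol. The 10 genes are Rhag, Rhd, Kel, Ermap, Icam4, Aqp1, Xk, Slc14a1, Cd24a and Tspo2. They were taken by symbol, so all 14 probe sets that the array's annotation gives to these 10 genes were used, out of 45101 probe sets. Of the 10 genes, 8 had a log2 value of at least 6 on at least 3 of the 14 arrays and were tested among 7393 genes, and each of those 8 reached 6 on all 14 arrays. The remaining pair, Aqp1 and Slc14a1, stayed below 6 on every array.

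The study hybridized total RNA of circulating blood, taken from mouse embryos at day E12.5, to Affymetrix mouse expression arrays. Chimeras with the Cbfb-MYH11 fusion allele, which models an inversion found in human acute myeloid leukemia, were mated to C57/Bl6 females, and blood was collected from Cbfb+/MYH11 embryos (4 arrays) and from their WT littermates (4 arrays). A second cross, between Cbfb+/- parents, gave Cbfb-/- embryos (3 arrays) and Cbfb+/+ littermates (3 arrays). Cbfb encodes the partner subunit of the Runx transcription factors, and the comparisons ask what the fusion does to blood cells beside what loss of Cbfb does. Blood of 8 to 10 embryos of a genotype was pooled, and the labels number the arrays as technical replicates, so every p-value here rests on variation among arrays that may be technical rather than biological. No sorting was named, so each array reads whole blood. Both the fusion and the loss of Cbfb are known to block the definitive blood lineages.

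Red cells carry their antigens in protein complexes. Rhag, a channel-like glycoprotein for ammonia or gases, holds the Rh complex together with Rhd, which carries Rh antigens, and Icam4, the LW antigen and a ligand of integrins. Kel, the Kell antigen, is a zinc endopeptidase that is bound by a disulfide bridge to Xk, a membrane protein with lipid scramblase activity. Ermap, a butyrophilin-like protein of the immunoglobulin superfamily, carries the Scianna antigens, Aqp1 is a water channel and the Colton antigen, and Slc14a1 is the urea transporter that carries the Kidd antigens. Cd24a, the heat stable antigen, is a small glycoprotein held by a lipid anchor on immature erythroid cells and on many other cells, neural and lymphoid cells among them. Tspo2 is the erythroid relative of the translocator protein Tspo, and binds cholesterol in maturing red cell precursors. At E12.5 most circulating cells are primitive erythroid cells from the yolk sac, which mature in the bloodstream.

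Upstream sequences were available from RefSeq (GRCm38.p6) for 8 of the 10 genes, all but Cd24a, which fell in Cbfb+/MYH11, and Slc14a1. Of the 8, the 4 that were called in a mutant are printed. Tspo2 and Xk fell in both mutants, Ermap fell in 1 mutant, and Icam4 rose in the other. Each runs 5′ to 3′ on the gene's strand from 250 bases before the start and is printed as far as the bases lie outside a gene body. Capitals mark matches to GATA, RUNX or KLF motifs on either strand.
Tspo2, chr17:48451565-48451751, minus strand: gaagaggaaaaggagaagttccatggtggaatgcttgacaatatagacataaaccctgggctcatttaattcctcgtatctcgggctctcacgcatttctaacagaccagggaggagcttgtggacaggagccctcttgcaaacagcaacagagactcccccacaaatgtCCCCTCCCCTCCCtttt
Xk, chrX:9272534-9272783, plus strand: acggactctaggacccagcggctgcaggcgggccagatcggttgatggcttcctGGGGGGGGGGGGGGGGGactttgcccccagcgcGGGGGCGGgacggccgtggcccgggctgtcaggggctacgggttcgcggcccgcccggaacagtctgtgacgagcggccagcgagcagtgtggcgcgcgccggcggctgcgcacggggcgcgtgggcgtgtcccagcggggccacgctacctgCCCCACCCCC
Ermap, chr4:119190014-119190245, minus strand: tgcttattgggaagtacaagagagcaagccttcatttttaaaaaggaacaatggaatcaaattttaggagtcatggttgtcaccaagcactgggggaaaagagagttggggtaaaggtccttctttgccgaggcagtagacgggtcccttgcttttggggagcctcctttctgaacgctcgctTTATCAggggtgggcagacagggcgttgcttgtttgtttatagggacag
Icam4, chr9:21029182-21029431, plus strand: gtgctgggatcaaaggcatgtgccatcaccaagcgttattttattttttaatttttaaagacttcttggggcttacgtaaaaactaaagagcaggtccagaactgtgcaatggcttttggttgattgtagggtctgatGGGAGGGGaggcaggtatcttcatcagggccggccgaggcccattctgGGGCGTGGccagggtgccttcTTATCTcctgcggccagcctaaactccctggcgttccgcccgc

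A GATA motif, AGATA or TGATA followed by A or G, lay within 250 bases before the start of 5 of the 8 genes (Rhag, Rhd, Kel, Ermap and Icam4), and 26.5% of 32851 promoters held one in the same window. In Ermap it lay from -67 to -62 and in Icam4 from -43 to -38. The KLF motif CCNCNCCC was found in 4 of the 8 (Icam4, Aqp1, Xk and Tspo2) and in 45.9% of all promoters. In Tspo2 its pair of matches, from -80 to -73 and from -75 to -68, overlap each other, and in Xk several overlap within a run of G. A RUNX motif, TGTGGT or TGCGGT, occurred in 1 of the 8 (Rhag) and in 18.6% of all promoters, so the printed windows of Tspo2, Xk, Ermap and Icam4 hold none. These matches describe letters in a window and say nothing of binding.

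A gene was called changed where limma's adjusted p was under 0.05 and the change reached 1.5-fold, and the words rose and fell are kept for such genes. In Cbfb+/MYH11 blood, set against WT littermates, 3 of the 8 tested genes fell (Xk, Cd24a and Tspo2) and 1 rose (Icam4). Over all tested genes 5.63% were called lower and 30.5% higher in this comparison. In Cbfb-/- blood, set against Cbfb+/+ littermates, 3 of the 8 fell (Ermap, Xk and Tspo2) and 0 rose, where 6.65% of all tested genes were called lower and 19.5% higher. The change in Cbfb+/MYH11 differed from that in Cbfb-/- for 3 genes, higher for Ermap and Icam4 and lower for Cd24a, beside 14.9% and 6.07% of all tested genes. Xk and Tspo2 were thus called lower in both mutants, as were 144 of the 7393 genes (1.95%). The median change of the 8 genes was -0.18 on the log2 scale in Cbfb+/MYH11 and -0.42 in Cbfb-/-, beside medians of 0.26 and 0.13 over all tested genes. Set against the deposited median of all genes, a change in Cbfb+/MYH11 reads 0.26 lower on the log2 scale. The medians of all genes were -0.02 and -0.04 with quantile normalization between arrays, and 0.37 and 0.19 with each array centred on its median. In whole blood, fewer cells of a type and less RNA per cell cannot be told apart.

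**Figure D1:**
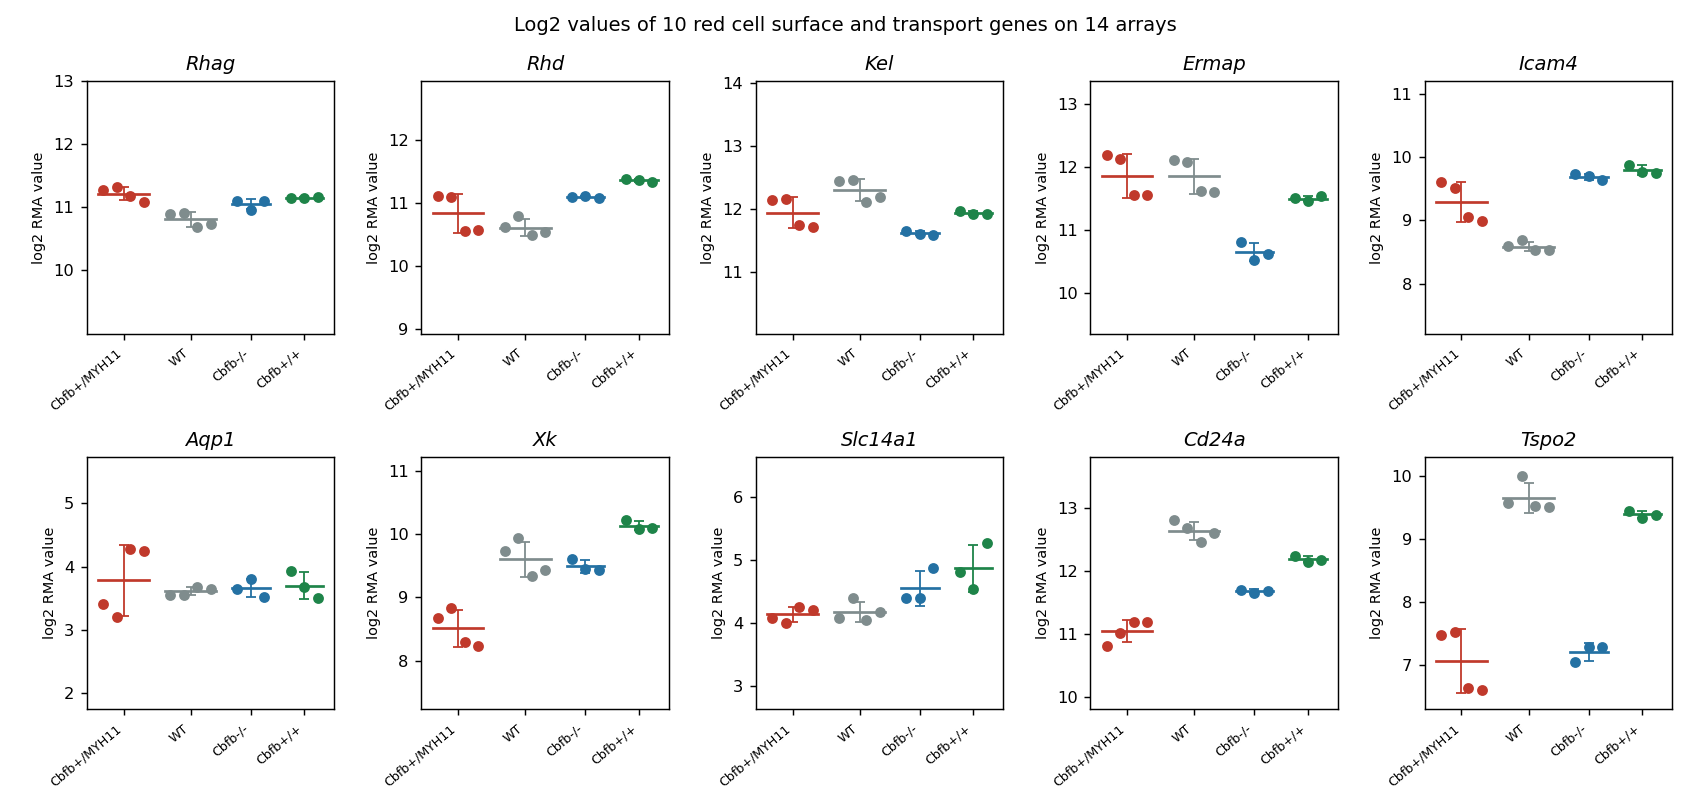
Deposited log2 RMA values of the used probe set of each of the 10 genes (one panel per gene) on each of the 14 arrays, by group, with points for arrays, horizontal bars for the group mean and vertical bars for 1 SD. Tspo2 lies between 6.61 and 7.52 on the Cbfb+/MYH11 arrays and between 9.51 and 10.00 on the WT arrays, while Aqp1 and Slc14a1 lie below the filter value of 6 everywhere.

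**Figure D2:**
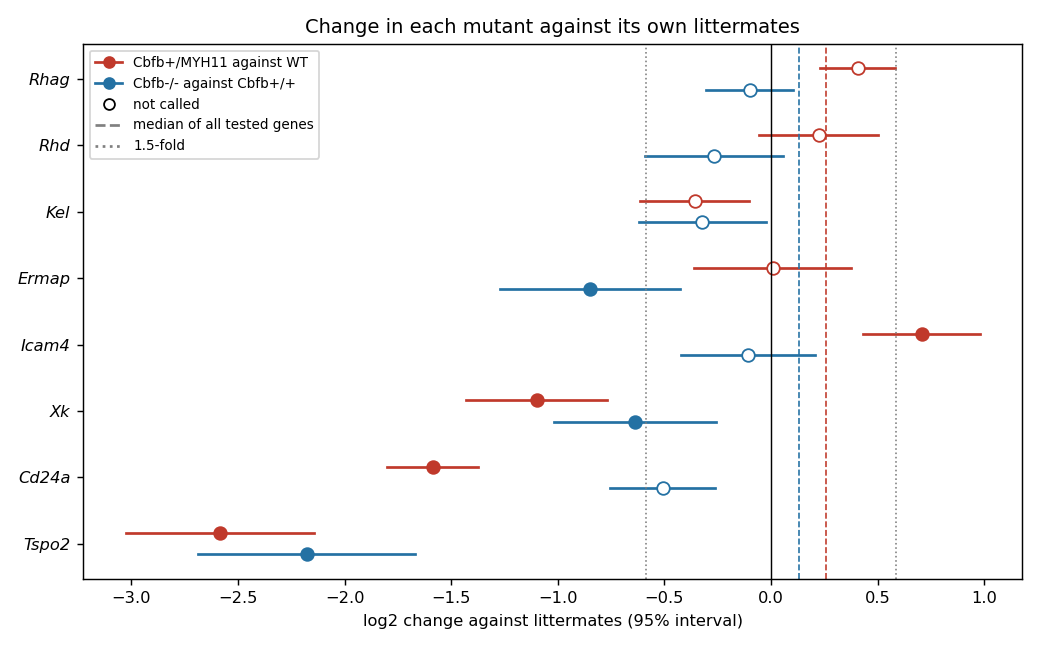
Log2 change of the 8 tested genes with its 95% interval from limma, for Cbfb+/MYH11 against WT and for Cbfb-/- against Cbfb+/+; open points were not called, dotted lines mark 1.5-fold and dashed lines the median of all tested genes. Tspo2 is lowest in both comparisons, at -2.59 and -2.18, and Icam4 is the one gene called higher.

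Tspo2, the erythroid cholesterol-binding protein, had the lowest change of the 8 genes in both mutants. Its log2 values were 7.48, 7.52, 6.64 and 6.61 on Cbfb+/MYH11 arrays 1 to 4 and 9.57, 10.00, 9.52 and 9.51 on WT arrays 1 to 4. The Cbfb-/- arrays read 7.05, 7.29 and 7.29, against 9.45, 9.33 and 9.38 on the Cbfb+/+ arrays. Every mutant array lay below every array of its own littermates. The change was -2.59 (95% interval -3.03 to -2.14, limma adjusted p = 6.67e-07) in Cbfb+/MYH11, which is 4.42- to 8.15-fold lower over the interval. In Cbfb-/- it was -2.18 (interval -2.69 to -1.67, limma adjusted p = 9.35e-05), or 3.18- to 6.44-fold lower. The difference between the 2 changes, -0.41, had an interval from -1.08 to 0.27 (limma adjusted p = 0.365). The Tspo2 values of the Cbfb+/MYH11 and Cbfb-/- arrays overlapped (mean 7.06 ± 0.51, SD, n = 4, and 7.21 ± 0.14, SD, n = 3). The WT and Cbfb+/+ means were 9.65 ± 0.23 (SD, n = 4) and 9.39 ± 0.06 (SD, n = 3).

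Cd24a, the heat stable antigen, fell in Cbfb+/MYH11 and was lower, but under the fold threshold, in Cbfb-/-. The brightest of its 3 probe sets, 1416034_at, read 10.81, 11.01, 11.19 and 11.19 on the Cbfb+/MYH11 arrays and 12.81, 12.68, 12.46 and 12.60 on the WT arrays. It read 11.70, 11.65 and 11.69 in Cbfb-/- and 12.24, 12.15 and 12.17 in Cbfb+/+, and neither mutant overlapped its littermates. In Cbfb+/MYH11 the change was -1.59 (interval -1.80 to -1.37, limma adjusted p = 9.49e-08), a 3.00-fold lower level. In Cbfb-/- it was -0.51 (interval -0.76 to -0.26, limma adjusted p = 0.00498), or 1.42-fold, and with quantile normalization it passed the fold threshold (-0.64, limma adjusted p = 0.00160). The changes in the 2 mutants differed by -1.08 (interval -1.41 to -0.75, limma adjusted p = 2.08e-04), so the change was larger with the fusion than with loss of Cbfb.

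The other probe sets of Cd24a, fitted among 11078 probe sets, gave the same directions. Probe set 1437502_x_at had a change of -1.25 in Cbfb+/MYH11 (limma adjusted p = 1.22e-05) and of -0.57 in Cbfb-/- (limma adjusted p = 0.0142, under the fold threshold). Probe set 1448182_a_at had -1.22 (limma adjusted p = 2.50e-05) and -0.36 (limma adjusted p = 0.0993). The difference between the mutants was called for each of them, at -0.69 (limma adjusted p = 0.0294) and -0.86 (limma adjusted p = 0.0135). For 1437502_x_at it was not called when all probe sets with 1 symbol were fitted with no filter (limma adjusted p = 0.0541). On 1437502_x_at the arrays of the 2 mutants overlapped, at means of 9.43 in Cbfb+/MYH11 and 9.38 in Cbfb-/-, while its littermate means were 10.68 in WT and 9.94 in Cbfb+/+.

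**Figure D3:**
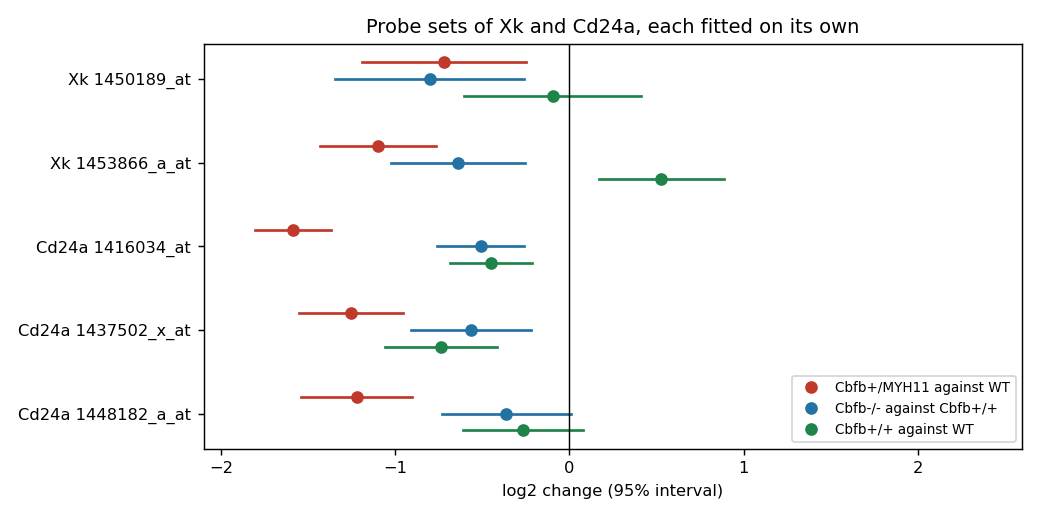
Log2 change of every probe set of Xk and Cd24a with its 95% interval, in each mutant against its littermates and in Cbfb+/+ against WT. All 5 probe sets lie below 0 in both mutants, and the values differ in size between probe sets of one gene.

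Xk and Kel, the partners of the Kell complex, differed in their calls. Xk, the scramblase-like partner, was read by its brighter probe set, 1453866_a_at, at 8.67, 8.83, 8.29 and 8.24 on the Cbfb+/MYH11 arrays, against 9.73, 9.93, 9.33 and 9.43 on the WT arrays. The Cbfb-/- arrays gave 9.61, 9.45 and 9.43, against 10.22, 10.08 and 10.11 on the Cbfb+/+ arrays, and neither mutant overlapped its littermates. Xk fell by 1.10 on the log2 scale in Cbfb+/MYH11 (interval -1.43 to -0.77, limma adjusted p = 6.34e-05, 2.14-fold) and by 0.64 in Cbfb-/- (interval -1.02 to -0.26, limma adjusted p = 0.0130, 1.56-fold). The difference between these changes was -0.46 (interval -0.96 to 0.04, limma adjusted p = 0.167). With each array centred on its median the change in Cbfb-/- was -0.58 (limma adjusted p = 0.0152), just under the fold threshold, which ends that call. The second probe set, 1450189_at, was also called lower in both mutants, at -0.72 (limma adjusted p = 0.0123) and -0.80 (limma adjusted p = 0.0225), so the larger change lay in Cbfb+/MYH11 on one probe set and in Cbfb-/- on the other.

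Kel, the Kell endopeptidase, read 12.14, 12.16, 11.75 and 11.72 on the Cbfb+/MYH11 arrays, against 12.44, 12.46, 12.10 and 12.19 on the WT arrays, groups that overlap. Between arrays of the same number, Kel was lower with the fusion in 4 of 4, with differences of -0.30, -0.30, -0.36 and -0.48. Kel read 11.65, 11.60 and 11.59 in Cbfb-/- and 11.97, 11.91 and 11.92 in Cbfb+/+, which do not. The change was -0.36 in Cbfb+/MYH11 (interval -0.62 to -0.10, limma adjusted p = 0.0192) and -0.32 in Cbfb-/- (interval -0.62 to -0.03, limma adjusted p = 0.0727), both under the fold threshold. Between the mutants the changes of Kel differed by -0.04 (interval -0.43 to 0.36).

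Of the Rh complex, Icam4 rose in Cbfb+/MYH11, and Rhag and Rhd were not called in either mutant. Icam4, the integrin ligand, read 9.60, 9.52, 9.05 and 8.997 on the Cbfb+/MYH11 arrays, and on the WT arrays 8.60, 8.69, 8.53 and 8.53. The fusion arrays lay above all WT arrays, by 0.71 on average (interval 0.43 to 0.98, limma adjusted p = 4.16e-04, 1.63-fold). Set against the median of all genes the change was 0.45, and with quantile normalization it was 0.35 (limma adjusted p = 0.0711) and no longer called. In Cbfb-/- the values were 9.74, 9.70 and 9.64, beside 9.88, 9.77 and 9.75 in Cbfb+/+, a change of -0.11 (interval -0.42 to 0.21, limma adjusted p = 0.554). The 2 changes differed by 0.82 (interval 0.40 to 1.23, limma adjusted p = 0.00744), a call that also ended with quantile normalization (0.63, limma adjusted p = 0.0810).

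Rhag, the core of the Rh complex, read 11.28, 11.32, 11.17 and 11.09 on the Cbfb+/MYH11 arrays, against 10.90, 10.91, 10.68 and 10.74 on the WT arrays, with no overlap. Its change of 0.41 (interval 0.23 to 0.58, limma adjusted p = 9.47e-04) was under the fold threshold. The Rhag readings in Cbfb-/- were 11.10, 10.96 and 11.10, close below 11.15, 11.14 and 11.16 in Cbfb+/+ (change -0.10, interval -0.30 to 0.11). Rhd, the Rh antigen carrier, read 11.11, 11.09, 10.55 and 10.57 on the Cbfb+/MYH11 arrays, against 10.61, 10.79, 10.48 and 10.54 on the WT arrays. These overlap, and the change was 0.23 (interval -0.05 to 0.50, limma adjusted p = 0.144), or -0.03 with quantile normalization. For Rhd the readings in Cbfb-/- were 11.08, 11.11 and 11.07, all below the 11.37, 11.36 and 11.33 of Cbfb+/+, with a change of -0.27 (interval -0.59 to 0.06, limma adjusted p = 0.156).

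Ermap, the Scianna antigen, fell in Cbfb-/- and was not called in Cbfb+/MYH11. The Cbfb-/- arrays read 10.81, 10.52 and 10.62 and the Cbfb+/+ arrays 11.51, 11.46 and 11.54. Ermap fell by 0.85 there (interval -1.27 to -0.43, limma adjusted p = 0.00558, 1.80-fold). The Cbfb+/MYH11 arrays read 12.20, 12.13, 11.56 and 11.56 and the WT arrays 12.12, 12.07, 11.61 and 11.61, so both groups hold a higher and a lower pair of arrays and overlap. Their difference was 0.01 (interval -0.36 to 0.37, limma adjusted p = 0.972). The changes in the 2 mutants differed by 0.86 (interval 0.30 to 1.42, limma adjusted p = 0.0278). That call was lost when any one of 6 single arrays was left out (limma adjusted p up to 0.0706: Cbfb+/MYH11 array 2, Cbfb-/- arrays 2 and 3, and Cbfb+/+ arrays 1, 2 and 3) and with quantile normalization (0.78, limma adjusted p = 0.0685).

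Aqp1, the water channel, and Slc14a1, the urea transporter, were dim. Aqp1 read from 3.21 to 4.27 in Cbfb+/MYH11, from 3.55 to 3.68 in WT, from 3.52 to 3.80 in Cbfb-/- and from 3.50 to 3.93 in Cbfb+/+. The brighter probe set of Slc14a1 read from 3.99 to 4.24, 4.05 to 4.40, 4.39 to 4.86 and 4.53 to 5.27 in the same order of groups. Array medians over all probe sets were 4.27 to 4.46, so the Aqp1 values lie near or below a typical probe set. With no filter, the changes of Aqp1 were 0.17 and -0.04, and those of Slc14a1 were -0.04 and -0.32, in Cbfb+/MYH11 and Cbfb-/- (limma adjusted p from 0.222 to 0.916). The dimmer probe set of Slc14a1, 1428114_at, read from 3.45 to 3.53, 3.18 to 3.77, 3.22 to 3.54 and 3.84 to 4.26 in the same order. Fitted with no filter, it was called lower in Cbfb-/- (-0.67, limma adjusted p = 0.00890) and called in the difference between the mutants (0.71, limma adjusted p = 0.0363), with a change of 0.04 in Cbfb+/MYH11, at levels below the array medians. In that fit both probe sets of Slc14a1 were called higher in Cbfb+/+ than in WT. The difference was 0.59 for 1428114_at (limma adjusted p = 0.0175) and 0.69 for the brighter probe set (limma adjusted p = 0.0179).

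The wild-type groups of the 2 crosses differed for several of these genes, which bears on every level set across the crosses. Between Cbfb+/+ and WT blood, 2 of the 8 genes were called higher in Cbfb+/+ and 0 lower, beside 5.48% and 5.76% of all tested genes. Icam4 was 2.32-fold higher in Cbfb+/+ (log2 difference 1.21, limma adjusted p = 9.07e-05), and Rhd was 1.68-fold higher (0.75, limma adjusted p = 0.00196). Without the fold threshold 2 more were higher, Rhag and Xk, and Cd24a was lower (-0.45, limma adjusted p = 0.00839). Other probe sets differed. Xk 1450189_at gave -0.095 (limma adjusted p = 0.802). Cd24a 1437502_x_at was called lower (-0.74, limma adjusted p = 0.00321), and 1448182_a_at was not called (-0.27, limma adjusted p = 0.241). On the probe sets used, all 8 genes separated between the wild-type groups, 4 of them higher (18.7% of all genes) and 4 lower (15.4%) in Cbfb+/+. Cross, strain background and array run cannot be told apart here.

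The order of the 4 groups therefore differed from gene to gene. For Tspo2 it ran Cbfb+/MYH11, Cbfb-/-, Cbfb+/+ and WT from low to high, with overlapping arrays only between the mutants. Cd24a had the same order on probe set 1416034_at and no neighbouring groups overlapped. For Xk on its brighter probe set it was Cbfb+/MYH11, Cbfb-/-, WT and Cbfb+/+, where Cbfb-/- and WT overlapped. Icam4 ran WT, Cbfb+/MYH11, Cbfb-/- and Cbfb+/+ with no overlap. In Ermap, Cbfb-/- was lowest, followed by Cbfb+/+, and the overlapping pair WT and Cbfb+/MYH11 was highest. Kel was also lowest in Cbfb-/-, and Rhag and Rhd were lowest in WT.

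All 8 genes were lower on every Cbfb-/- array than on every Cbfb+/+ array, while 25.0% of all tested genes separated in that direction and 44.3% in the other. In the fusion cross 3 genes lay wholly below their littermates (13.6% of all genes), 2 wholly above (39.5%) and 3 overlapped. Of the 3 that overlapped, Kel was lower and Rhd higher on 4 of 4 Cbfb+/MYH11 arrays than on the WT array of the same number, and Ermap was higher on 2 and lower on 2. The labels state no such pairing, and no share of all genes is given for these counts. The arrays of that cross came as pairs: arrays 1 and 2 resembled each other, as did arrays 3 and 4. The SD of log2 differences over tested genes was 0.11 to 0.28 within these pairs and 0.36 to 0.71 between them. WT arrays 3 and 4 read lower than WT arrays 1 and 2 for all 8 genes, by 0.11 to 0.48, of which 0 were called (3.77% of all tested genes were called lower there, and the median of all genes was 0.13). In Cbfb+/MYH11 7 of the 8 were lower on arrays 3 and 4, and Ermap (-0.61) and Tspo2 (-0.88) were called, beside 1.20% of all tested genes and a median of 0.08.

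Within pairs, the change of Xk with the fusion was -1.08 on arrays 1 and 2 and -1.12 on arrays 3 and 4. That of Cd24a was -1.83 and -1.34, and that of Tspo2 was -2.28 and -2.89, and all 3 genes were called lower in both pairs, as were 7.63% of all tested genes on arrays 1 and 2 and 6.44% on arrays 3 and 4. The changes of Tspo2 in the 2 pairs differed by -0.61 (limma adjusted p = 0.0206), and on arrays 3 and 4 alone its difference from the change in Cbfb-/- was called (-0.71, limma adjusted p = 0.00261). Icam4 was called higher on arrays 1 and 2 only (0.92, beside 37.0% of all tested genes), and its change on arrays 3 and 4 was 0.50, under the fold threshold. When each pair, and each group of 3 arrays in the other cross, was averaged to 1 sample, no member was called, with the changes themselves as before. The limma adjusted p of Tspo2 was then 0.0816 in Cbfb+/MYH11, where the fit called 17 genes higher and 1 lower. Cbfb-/- and Cbfb+/+ are 1 sample each in that fit, which called 0 genes between them and says little of that comparison.

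**Figure D4:**
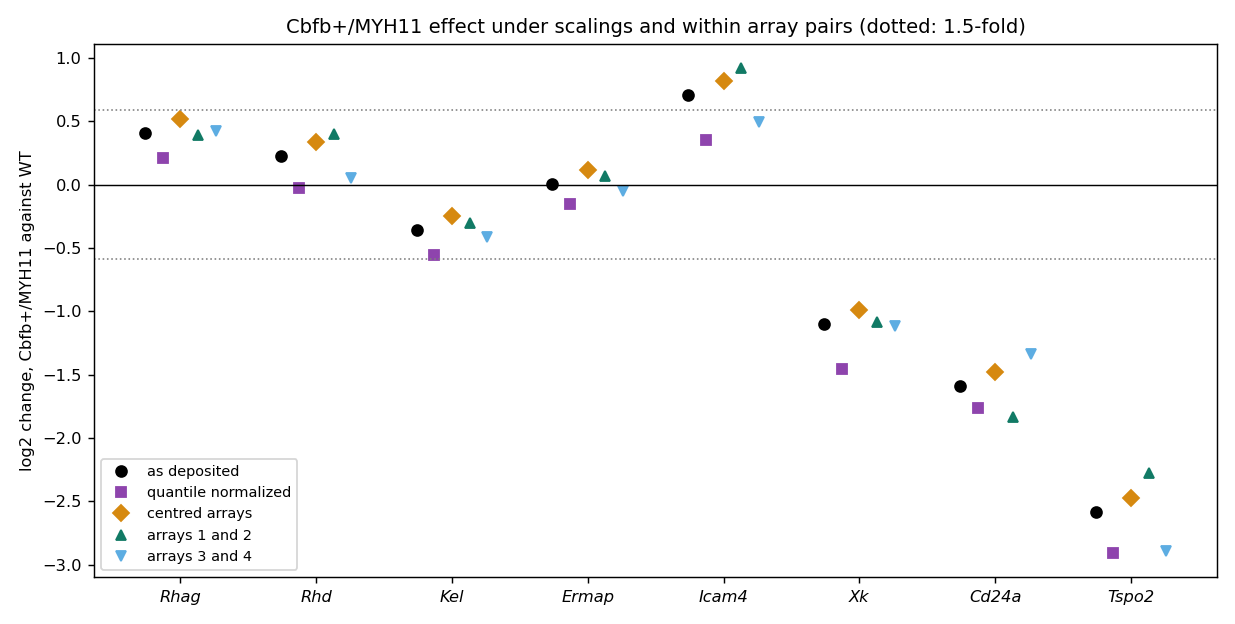
Log2 change in Cbfb+/MYH11 against WT of each tested gene under the deposited values, quantile normalization, median centring and within each pair of arrays. Xk, the least changed of the 3 genes called lower, lies between -1.46 (quantile normalized) and -0.99 (arrays centred), and Ermap lies between -0.15 and 0.12.

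Other genes of the red cell surface were read from lists of blood group carriers and transporters. Of 22 further blood group carriers, 15 were tested, and 7 rose and 1 fell in Cbfb+/MYH11, while 0 rose and 2 fell in Cbfb-/-. All tested genes were called higher at 30.5% and lower at 5.63% in Cbfb+/MYH11, and at 19.5% and 6.65% in Cbfb-/-. The median changes of these carriers were 0.10 and -0.24, beside 0.26 and 0.13 over all tested genes. Of 24 further transporters, 19 were tested, 9 rose and 1 fell in Cbfb+/MYH11 (median 0.50), and 1 rose and 5 fell in Cbfb-/- (median -0.38). Bcam and Slc12a7 passed the filter through the Cbfb-/- arrays alone, Emp3 through Cbfb+/+ alone, and Aqp9 and Atp2b1 through Cbfb+/MYH11 alone, so their counts are partly set by the filter.

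Slc29a1, the nucleoside transporter that carries the Augustine antigen, had a mean of 9.32 ± 0.29 (SD, n = 4) in Cbfb+/MYH11 and 5.66 ± 0.42 (SD, n = 4) in WT, a rise of 3.67 (12.7-fold, limma adjusted p = 1.84e-08). The Slc29a1 means in Cbfb-/- and Cbfb+/+ were 6.78 and 6.52. Slc2a1, the glucose transporter, rose with the fusion by 1.38 (limma adjusted p = 1.44e-07) and fell by 0.82 in Cbfb-/- (limma adjusted p = 2.11e-04). The water channel gene Aqp8 rose by 1.99 (limma adjusted p = 1.79e-07) and Abcg2, the exporter that carries the Junior antigen, by 1.79 (limma adjusted p = 2.19e-07). Cd47, the integrin-associated protein of the Rh complex, fell in both mutants, by 0.65 (limma adjusted p = 3.01e-04) and 0.63 (limma adjusted p = 0.00297). Both calls of Cd47 lay near the fold threshold: with centred arrays the changes were -0.54 and -0.57, under it, and with quantile normalization -1.04 and -0.84. On arrays 1 and 2 the change of Cd47 with the fusion was -0.97 and on arrays 3 and 4 -0.33, and leaving out Cbfb+/MYH11 array 1 (-0.58) or Cbfb-/- array 2 (-0.58) ended the call in that mutant.

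Tspo, the widely expressed relative of Tspo2, fell by 0.65 in Cbfb+/MYH11 (limma adjusted p = 5.25e-04). Its change was under the fold threshold with centred arrays (-0.54), as the mean of its probe sets (-0.51), on arrays 3 and 4 (-0.58) and without WT array 2 (-0.55). The sphingosine phosphate exporter Mfsd2b fell in Cbfb-/- by 0.74 (limma adjusted p = 3.47e-04) but rose with the fusion by 0.73 (limma adjusted p = 2.47e-05). The amino acid transporter genes Slc16a10 and Slc7a5 fell in Cbfb-/- by 0.82 (limma adjusted p = 4.39e-04) and 0.69 (limma adjusted p = 0.00287). With the fusion their changes were -0.39 (limma adjusted p = 0.00570) and -0.52 (limma adjusted p = 0.00251), under the fold threshold. Slc12a7, a potassium chloride cotransporter, had a mean of 6.48 ± 0.32 (SD, n = 3) in Cbfb-/- and 5.46 ± 0.10 (SD, n = 3) in Cbfb+/+. It passed the filter through the Cbfb-/- arrays alone, so a higher level there was built into its being tested, and no test of it is given.

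**Figure D5:**
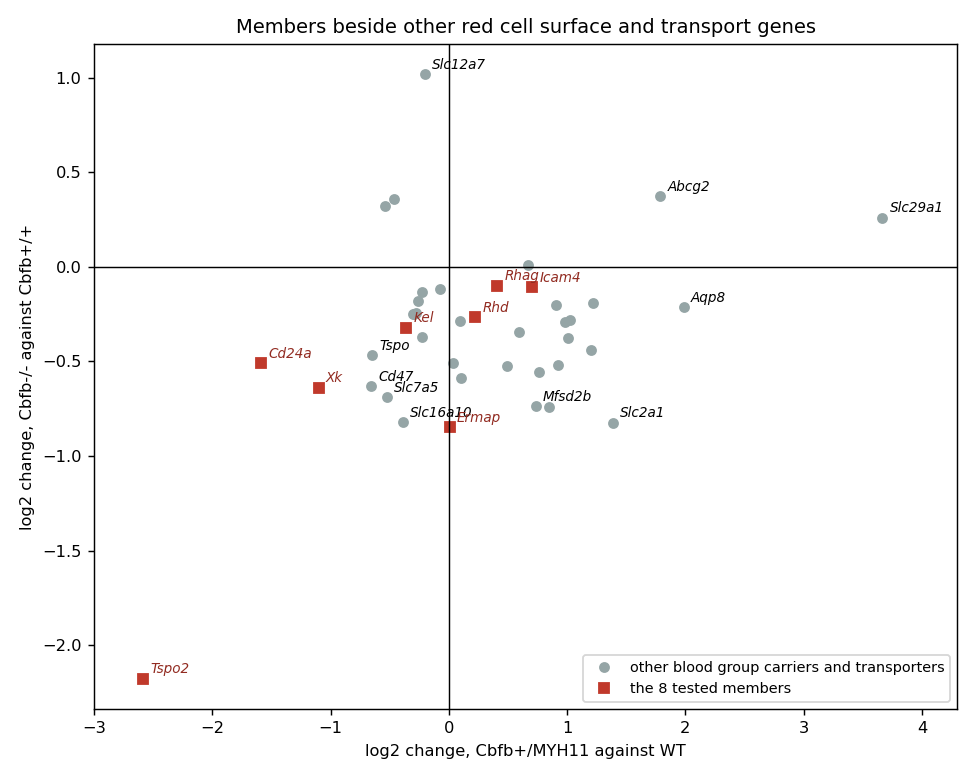
Log2 change in Cbfb+/MYH11 against WT plotted against that in Cbfb-/- against Cbfb+/+ for the further blood group carriers and transporters, with the 8 tested members. Slc29a1 lies farthest to the right at 3.67, and Slc2a1 lies to the right and below 0, at 1.38 and -0.82.

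The genes whose centred log2 values over the 14 arrays lay nearest to those of each member were found by root mean square distance. Ermap had Ank1, which encodes the red cell ankyrin, at 0.0880 and Prpf18 at 0.104. Rhag had Urod, an enzyme of heme synthesis, at 0.0711 and Lrp10 at 0.0822. Nearest to Rhd were Ptp4a3 at 0.105 and Ackr1, the Duffy antigen, at 0.127, and nearest to Kel were Narf at 0.0758 and Krtap12-1 at 0.0970. Xk had Pus10 at 0.101 and Fahd1 at 0.149, and Icam4 had Glo1 at 0.151 and Skiv2l at 0.205. Cd24a had Klhl22 at 0.183 and Tubb2a at 0.188. Nearest to Tspo2, whose own values spread by a root mean square of 1.24, were Fam220a at 0.411 and Rsad2 at 0.433. The same spread was only 0.181 for Rhag, so the distances do not rank how close the matches are between members. With quantile normalization 7 of these 16 genes were named again (Ptp4a3, Narf, Prpf18, Glo1, Pus10, Tubb2a and Fam220a), and Ank1, Urod and Ackr1 were not among them.

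Markers of erythroid cells were present throughout: 8 of 9 listed primitive erythroid genes reached 6 on every array. Of 8 tested, 3 (Gata1, Klf1 and Epor) rose with the fusion, a share near the 30.5% of all tested genes. In Cbfb-/- 0 of them were called, beside 19.5% of all tested genes called higher and 6.65% lower. Markers of other cells differed between the genotypes, and several also differed between WT arrays 1 and 2 and WT arrays 3 and 4. Of 9 tested macrophage markers 7 fell in Cbfb+/MYH11 and 9 in Cbfb-/-, and of 11 tested megakaryocyte and platelet markers 8 and 10 fell. Over all tested genes 5.63% and 6.65% were called lower in these comparisons. The summed macrophage level, in linear units, was 858 to 1097 in Cbfb+/MYH11, 762 to 3293 in WT, 497 to 533 in Cbfb-/- and 2186 to 2273 in Cbfb+/+. On WT arrays 3 and 4 that sum was 785 and 762, although 5 of 13 macrophage markers reached 6 there against 2 on each Cbfb+/MYH11 array, and their mean log2 level was 5.38 and 5.40 against 4.77 to 4.85. The summed megakaryocyte and platelet level was 4899 and 5719 on WT arrays 1 and 2 and 2074 and 2037 on WT arrays 3 and 4. It was 1779 to 2290 in Cbfb+/MYH11, 1148 to 1207 in Cbfb-/- and 3923 to 4065 in Cbfb+/+. Of 6 tested neural markers 2 (Sox2 and Fabp7) rose with the fusion, a share near the 30.5% of all genes. In Cbfb-/- 5 of the 6 rose, beside 19.5% of all genes. Summed neural levels were 643 to 1535 in Cbfb+/MYH11, 378 to 897 in WT, 1941 to 1988 in Cbfb-/- and 413 to 435 in Cbfb+/+. Of 7 tested liver or visceral endoderm markers 4 fell with the fusion and 5 rose in Cbfb-/-, beside 5.63% and 19.5% of all tested genes. Their summed level was 5201 and 5129 on WT arrays 1 and 2 but 400 and 425 on WT arrays 3 and 4. On Cbfb+/MYH11 arrays 1 to 4 it was 347, 324, 1025 and 1053, so it was above WT on arrays 3 and 4. It was 4733 to 5174 in Cbfb-/- and 1908 to 1951 in Cbfb+/+. Among 10 lymphoid markers at most 1 reached 6 on any array. The part of these other cells in the changes of the 8 genes was not tested.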

How the data were processed

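The deposited log2 values come from RMA, run by the authors in Affymetrix Expression Console (versions not given in the sources used here), per the submitters' processing notes. Per the labels, total RNA was labelled with biotin. The deposited arrays are not fully alike: 31.0% to 35.9% of genes reach log2 6. The array's annotation gave 1 symbol to 34958 of 45101 probe sets, 932 had several and were left out, and Ackr1 replaced an older symbol in a list. A gene was read by its brightest probe set, on the mean of 14 arrays, and of 18194 genes those at log2 6 or more on at least 3 arrays (7393) were tested. Members, gene lists, contrasts and settings were chosen with earlier results of these data known. Group means were fitted with limma 3.58.1 (R 4.3.3), all 14 arrays in 1 model (residual df 10, prior df 2.81), with Benjamini-Hochberg adjustment over all tested genes and 95% intervals. The scripts were tested on simulated data.

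Every member was named. From the lists, up to 4 called genes per direction with the smallest adjusted p were named for each mutant, and 2 nearest genes for each tested member. Same-numbered arrays of the fusion cross deviated together over tested genes (correlations 0.521, 0.407, 0.499 and 0.499), though arrays 1 and 2, and 3 and 4, did so across numbers too; in the other cross they were 0.034, 0.011 and 0.017. The promoter search was checked by orientation. The number of arrays limits the precision, and the depth of an array has no count. Alternatives tried were the normalization, the filter, the probe set per gene, the arrays in the fit, a replicate block, the pairs of arrays, the variance prior, the fold threshold and single arrays left out.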

Additional observations from a re-analysis of the deposited data

Results flagged for a closer look

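Of 48 groups of 4 arrays examined for a lone array, 2 had one whose gap to the nearest value took more of the group's range than Dixon's limit allows, and chance gives about 1 in 20. Tspo2 in WT had a gap of 0.884 of its range, with array 2 high at 10.00. Slc2a1 in WT had a gap of 0.854, again with array 2 high at 10.47.

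The change in Cbfb+/MYH11 and that in Cbfb-/- differed by a called amount, in limma's test of the difference, for 3 members. The same held for the further named genes Slc29a1, Slc2a1, Aqp8, Mfsd2b and Abcg2. Among the members the difference on the log2 scale was -1.08 for Cd24a, 0.86 for Ermap and 0.82 for Icam4, where 14.9% of all tested genes were called higher and 6.07% lower. It was 3.41 for Slc29a1, 2.21 for Slc2a1, 2.20 for Aqp8, 1.47 for Mfsd2b and 1.41 for Abcg2. For Slc12a7 it was -1.22, but this gene passed the filter through the Cbfb-/- arrays alone. A lower difference was thus partly built in, and the value is no test.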

How the results depend on the processing

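Averaging arrays to putative pools left 0 members higher and 0 lower in all 4 comparisons, from fewer samples. With quantile normalization 0 members were higher in Cbfb+/MYH11 and 0 in the difference between the mutants, and the calls over all genes moved from 2255 higher and 416 lower to 1307 and 1043 with the fusion, from 1443 and 492 to 1008 and 904 in Cbfb-/-, and from 1099 and 449 to 827 and 574 in the difference. On arrays 3 and 4 of the fusion cross 0 members were higher with the fusion and 2 lower in the difference, and on arrays 1 and 2 1 member was lower in Cbfb+/+ than in WT. Without the fold threshold 2 members were higher with the fusion, and 4 were higher and 1 lower in Cbfb+/+ than in WT; with every probe set fitted on its own 1 was lower there. Leaving out single arrays gave 1 to 2 members higher in the difference, and no other member count moved by over 1.5 times. The direction turned for Ermap with the fusion (-0.15 with quantile normalization, -0.053 on arrays 3 and 4, -0.10 to 0.11 with single arrays left out), Rhd with the fusion (-0.026 with quantile normalization) and Kel in the difference (0.019 with centring, 0.022 on arrays 1 and 2, -0.11 to 0.039 with single arrays left out), none of them called. Probe set 1450189_at of Xk gave -0.095 for Cbfb+/+ against WT and 0.080 in the difference. The replicate block changed no member's call (1 higher and 3 lower with the fusion, 0 and 3 in Cbfb-/-, 2 and 1 in the difference). The cause of these changes was not tested.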
